A study of Mus musculus with 24 samples.

Results

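The change of islet gene expression between 12 and 20 weeks of age was measured in female NOD mice, as the difference between these ages in the ratio of each NOD mouse to a control pool of its own age. The comparison used the 12 arrays of the 2 ages, out of 24 in the series, chosen by the age on their labels: 6 of NOD mice at 12 weeks and 6 at 20 weeks. Each array held islet RNA of 1 female NOD/LtJ mouse in the Cy5 channel and, in the Cy3 channel, islet RNA pooled from 6 age-matched females of the strain NOD.B10Sn-H2b/J. The control strain resembles NOD in most of its genome and has a different set of alleles at the major histocompatibility complex (MHC), named H2b in its strain name. Values below are log2(NOD/pool), later age minus earlier, so that a change of 1 is a doubling of the ratio, and 18085 genes were tested. The pool of an age was read as 1 sample hybridised 6 times. The p-values therefore measure the spread between arrays, which joins that between NOD mice with that between hybridisations of the pool. They leave out the spread between pools, and any difference between the 12 week and the 20 week pool enters each change in full.

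In NOD mice, autoreactive T cells, B cells and macrophages gather around and then inside the islets over weeks, and beta cells are lost until blood glucose can no longer be held down, in females earlier and more often than in males. Infiltrating T cells release interferon gamma, islet cells answer with chemokines and MHC molecules, and macrophages add interleukin 1 and interleukin 6. Beta cells exposed to these signals show endoplasmic reticulum stress, which the unfolded protein response is known to counter. The RNA came from whole islet preparations, so fewer cells of a type and less RNA per cell cannot be told apart in what follows.

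The preparations had the RNA of islets and of tissue beside them. Of 35 beta cell genes measured, between 33 and 35 were well above background in the pool and between 29 and 35 in the NOD mice on every array of these ages, and all 30 acinar enzyme and acinar cell genes were above background in both channels of all 12 arrays. The arrays differed in brightness. At 12 weeks the pool was dim: between 39.4% and 43.6% of all probes were well above background in its channel, against 56.2% to 60.4% in the 20 week pool. In the NOD channel the range was 52.3% to 62.1% at 12 weeks and 42.3% to 64.6% at 20 weeks, where mice 5 and 6 had the dimmest samples (42.3% and 47.7%). Before normalization, the median pool signal was 4.41 times as high at 20 as at 12 weeks, while the median NOD signal was 0.849 times as high. Normalization within each array sets the log2 ratios of genes of similar brightness near 0. A gene whose pool signal rose by less than that of such genes can therefore read as lower in the 20 week pool. The ratios of any 2 mice correlated across genes with a median r of 0.807 at 12 weeks and 0.69 at 20 weeks, where the lowest pair was at 0.19; genes are not independent replicates in these values.

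Between 12 and 20 weeks the genes whose ratio rose included cytokines such as Il6 and Il1b, 16 of 26 chemokine and chemokine receptor genes and 12 of 30 genes of the interferon gamma response, and those whose ratio fell included the heat shock protein 70 genes Hspa1a and Hspa1b and 4 of 35 beta cell genes. Of the genes tested, 436 (2.41%) were called, which means an adjusted p under 0.05 by limma with Benjamini-Hochberg adjustment and a change of at least 2-fold. Of these, 363 (2.01%) rose and 73 (0.404%) fell. The 6 mice of the 2 ages did not overlap for 294 of the 436 genes (67.4%, against 12.3% of all genes tested). The median rise was 1.35 and the median fall -1.13. For 250 of the 363 genes that rose, the mean ratio at 12 weeks was below 0, and for 190 of them it crossed to above 0 at 20 weeks. Another 113 were above 0 at both ages and moved further up. Of the 73 that fell, 51 went from above to below 0.

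The direction of these calls is relative to genes of similar brightness on the same array, which the loess curve sets near a log2 ratio of 0. With each array centred on its median in place of the loess curve, the median of all genes shifted by -0.775 between the ages, and 0.3% of 7665 called genes were higher in place of 83.3% of 436. With the scanner software's own ratio that shift was -0.178 and 34.1% of 2577 calls were higher; in the authors' deposited table it was -0.148 and 39.1% of 1990. Relative to the median gene under median centring, 433 of the 436 genes kept their sign, as did 11041 of all 18085 genes tested. Array quality weights gave 93.8% higher among 529 calls. Without 20 week mouse 5, the dimmest sample, 442 genes rose and 25 fell. Where the array carried several probes of a gene, they often differed: of 78 called genes named here 31 had another probe, and for 22 of these another probe was under 2-fold. On the 1 slide that held both ages (12 week mice 5 and 6 with 20 week mice 1 and 2), all 436 genes moved the same way and 171 passed the test. These arrays were among those that chose the 436 genes, so the shared direction is partly built in. Of all 18085 genes tested, 14139 moved there in the direction of the full comparison and 333 passed.

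The change of the ratio lay in both channels, and for most genes more in the pool. The ratio change of a gene equals the change of its NOD level minus the change of its pool level, both on the log2 intensity scale. For the 363 genes that rose, the median change was 0.56 in the NOD mice and -0.88 in the pool, and for 244 of them (67.2%) the pool's change was the larger, as it was for 62.3% of all genes. For the 73 that fell it was -0.30 in the NOD mice and 0.82 in the pool, larger in the pool for 61 (83.6%). The pool's 6 arrays of an age were read as hybridisations of 1 sample (r between 0.993 and 0.999), so no test was made on its change. Single genes still differed between these arrays. The 20 week pool level ran from 6.98 to 9.53 for Cxcl9 and from 7.24 to 9.05 for Tnfrsf18. For Ccr7 it ran from 7.32 to 8.61, and each of these genes was highest on the array of mouse 2. In the NOD channel alone 60 genes (0.332%) were called, 35 (0.194%) higher and 25 (0.138%) lower; at any fold, 923 (5.1%) had an adjusted p under 0.05. Of the 35 that rose there, 23 were also called in the ratio. Of the 25 that fell none was by limma, and 1 had an unadjusted p under 0.05 in the ratio, where it was higher. None of the 73 genes whose ratio fell was called in the NOD channel. There 16 of them were lower at an unadjusted p under 0.05 by limma, as 11.1% of all genes were. The ratio that chose the 73 holds the NOD channel, so a lean to lower is partly built in. The count of 60 moved to between 25 and 101 when 1 mouse was left out: it was 37 without 12 week mouse 3, and 95, 35, 25 and 101 without 20 week mouse 1, 2, 3 or 5. Without both dim 20 week mice, 5 and 6, it was 304 (137 higher, 167 lower), and on the slide with both ages it was 5 (0 higher, 5 lower).

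**Figure D1:**
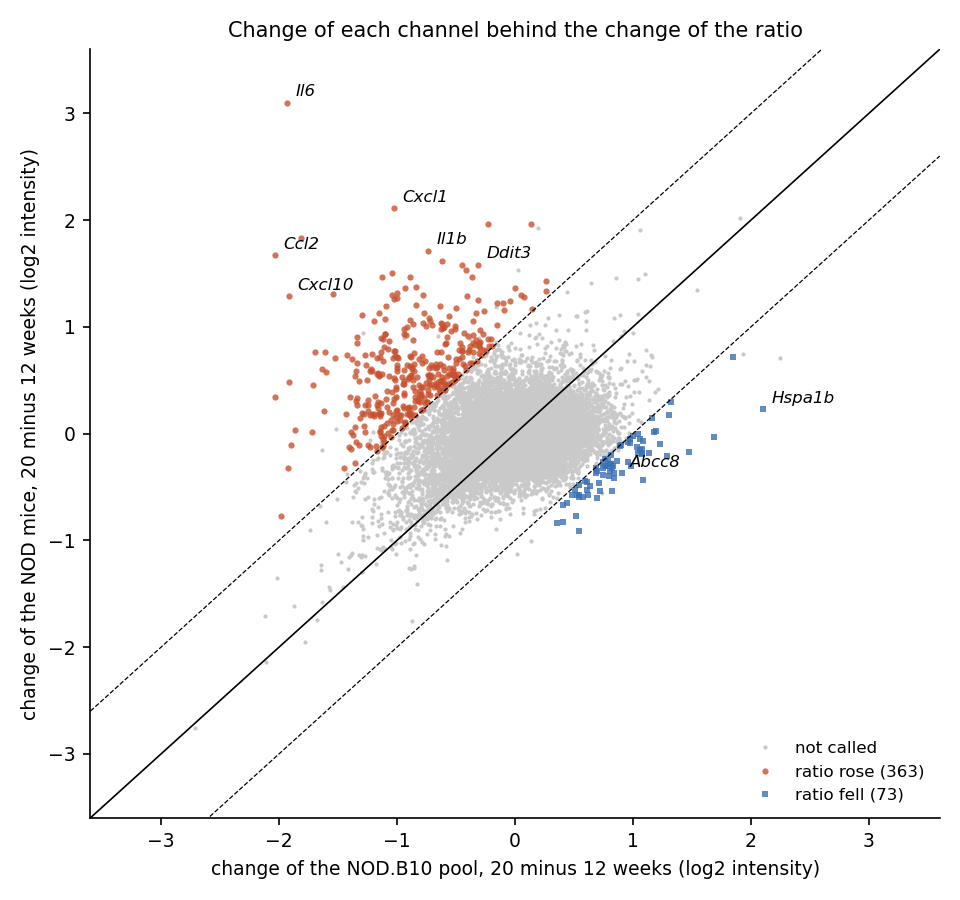
Each point is 1 of 18085 genes, with the change of the pool channel from 12 to 20 weeks on the x axis and the change of the NOD channel on the y axis, both in log2 intensity. On the solid line the ratio did not move and on the dashed lines it moved 2-fold. The 363 genes whose ratio rose lie to the upper left, mostly at pool changes below 0, and the 73 whose ratio fell lie to the right, at pool changes above 0.

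Il6, which encodes the cytokine interleukin 6, had the largest rise (probe at chr5:30346362-30346421, mm9). At 12 weeks its log2 ratio ran from -5.08 to -3.65 with a median of -3.88, and at 20 weeks from -0.65 to 2.44 with a median of 0.37. No mouse of 20 weeks was as low as any of 12 weeks, and 20 week mice 2 and 3 stood highest, at 2.44 and 2.39. The change was 5.03 ± 0.62 (model SE, 6 mice per age), a 32.7-fold change of the ratio, with an adjusted p of 1.12e-05 by limma. The NOD channel changed by 3.10 (adjusted p = 0.00766, called) and the pool by -1.93. Its unnormalized pool signal had a median of 1894 at 12 weeks and 1844 at 20 weeks, in a pool that was otherwise brighter at 20 weeks.

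The chemokine genes Ccl2 and Ccl7, neighbours on chromosome 11 whose products draw monocytes, came next. Ccl2 (chr11:81850650-81850709, mm9) ran from -3.08 to -1.62 at 12 weeks (median -2.15) and from 0.22 to 2.90 at 20 weeks (median 1.11), a change of 3.70 ± 0.62 (adjusted p = 0.000219). Ccl7 ran from -2.75 to -1.60 (median -1.97) and from 0.45 to 3.14 (median 1.24), a change of 3.65 ± 0.49 (adjusted p = 2.76e-05). For both genes every 12 week mouse was below its pool and every 20 week mouse above it. The NOD channel of Ccl7 rose by 1.84, and that of Ccl2 differed by 1.67 without passing the test (adjusted p = 0.13).

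Cxcl10 (chr5:92775781-92775840, mm9), an interferon-induced ligand of the T cell receptor Cxcr3, ran from -2.48 to -0.53 at 12 weeks (median -1.37) and from 0.83 to 3.23 at 20 weeks (median 1.56). The change was 3.20 ± 0.68 (adjusted p = 0.00148), made of 1.29 in the NOD channel (not called, adjusted p = 0.242) and -1.91 in the pool. Cxcl1, which draws neutrophils, changed from a median of -1.39 (-2.73 to -0.96) to 1.15 (0.45 to 2.93), by 3.13 ± 0.47 (adjusted p = 7.14e-05), and its NOD channel rose by 2.11. Il1b, which encodes interleukin 1 beta, started near its pool (-0.40 to 0.51, median 0.22) and reached 2.01 to 3.40 (median 2.59), a change of 2.45 ± 0.36 (adjusted p = 6.67e-05) with a NOD rise of 1.71. The 2 ages did not overlap for any of these 3 genes.

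The 10 genes named for the largest rise are the highest called genes whose ages did not overlap. The others of these 10 were P2ry10, a receptor gene of lymphocytes (2.85 ± 0.31), the interferon-induced antiviral gene Rsad2 (2.59 ± 0.96), Casp4, the inflammatory caspase gene also called Casp11 (2.46 ± 0.45), and Pvr, a surface ligand of the T cell and NK cell receptors Tigit and Cd226 (2.41 ± 0.43). Other probes read 1.21 and 0.97 for Rsad2 and 0.17, 1.61 and 0.98 for Pvr. P2ry10 stood at the pool's level at 12 weeks (-0.67 to 0.47, median 0.03) and far above it at 20 weeks (1.90 to 3.50, median 3.13). Pvr was below its pool in all 12 week mice (-2.23 to -1.67, median -1.71) and above it in all 20 week mice (0.10 to 1.21, median 0.50). Rsad2 was split at 20 weeks, with mice 2 and 3 at 2.58 and 2.88 and the others from -1.11 to 0.55. Its call (adjusted p = 0.0491) was lost when any 12 week mouse or 20 week mouse 1, 2 or 3 was left out, with changes between 2.13 and 2.92.

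**Figure D2:**
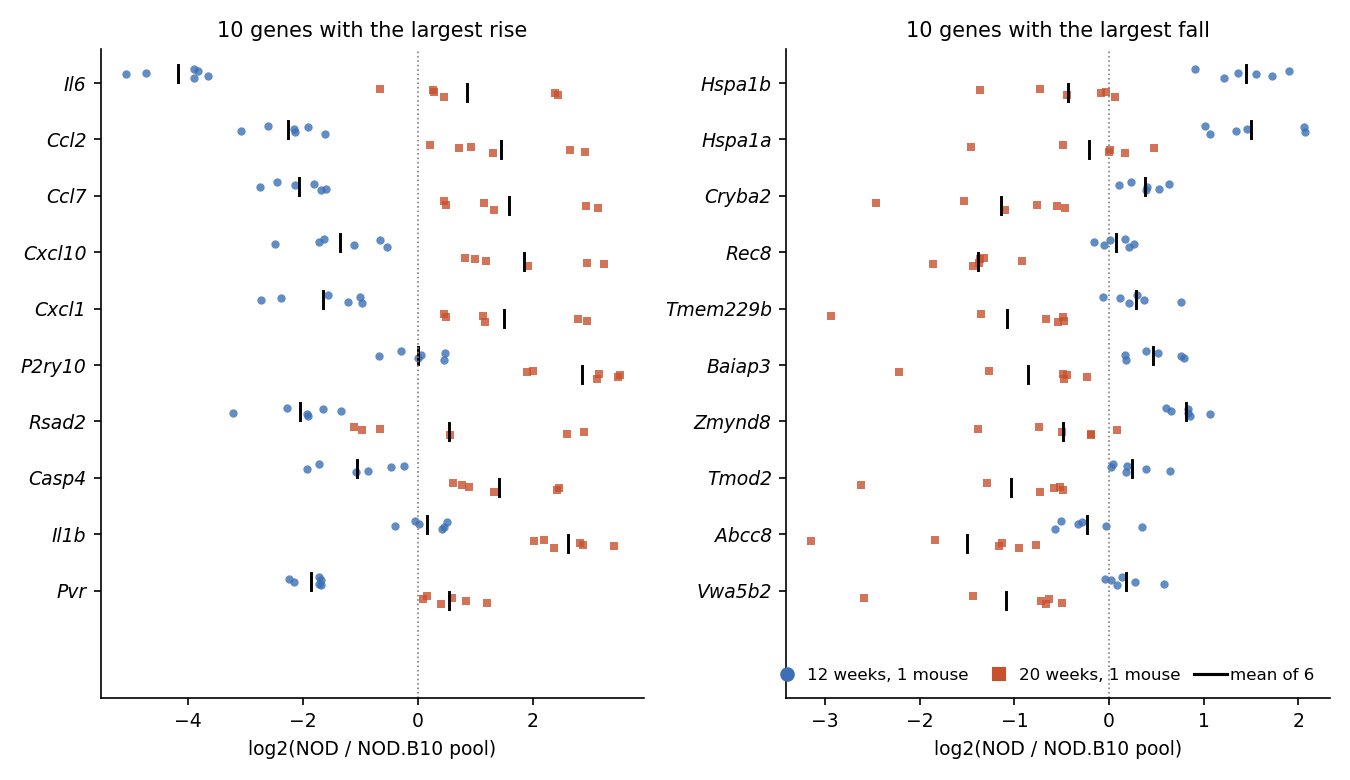
Log2 ratio of each mouse (x axis) for the 10 genes with the largest rise (left) and the largest fall (right) whose ages did not overlap. Circles are 12 week mice, squares 20 week mice and bars the mean of 6. Il6 moved from a mean of -4.17 to 0.86 and Hspa1b from 1.44 to -0.43.

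**Figure D3:**
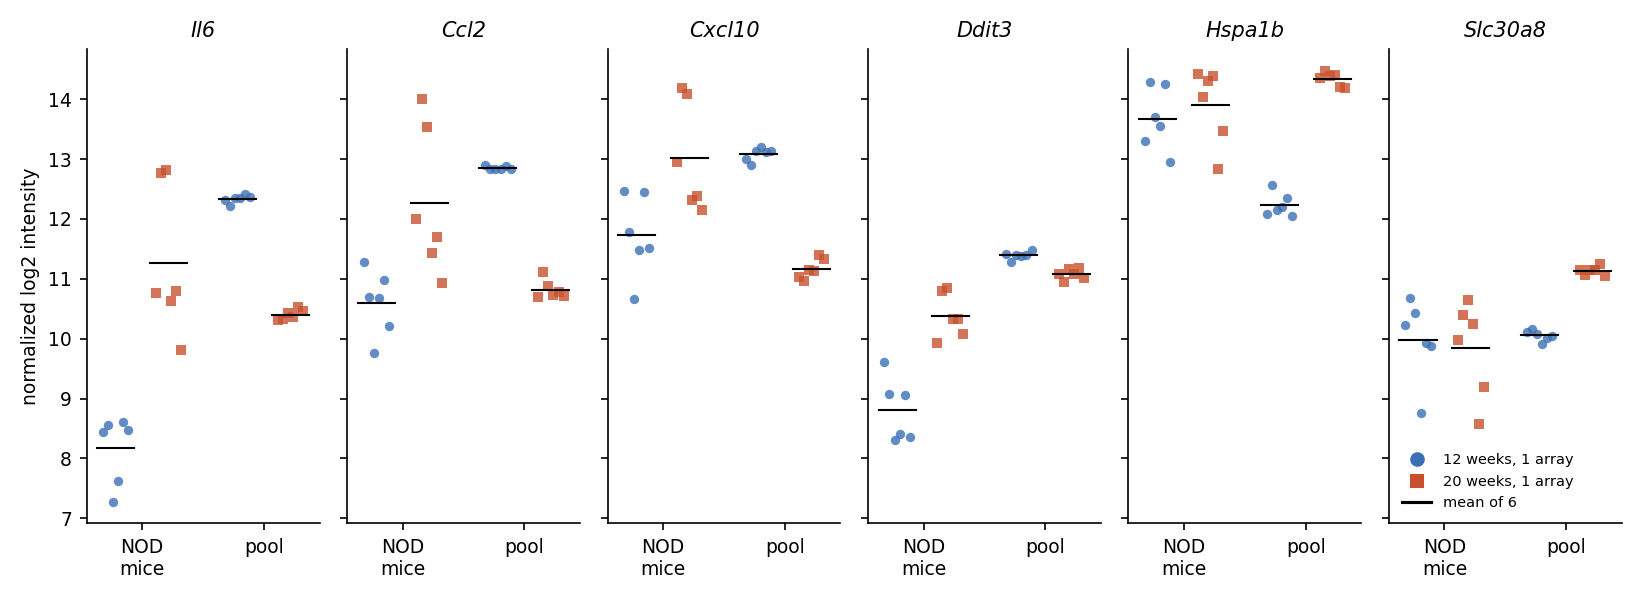
Normalized log2 intensity (y axis) of 6 genes in the NOD mice and in the pool, with 1 point per array and a bar for the mean of 6. For these 6 genes the pool points of an age, read as 1 sample, lie close together. Il6, Ccl2 and Cxcl10 were lower in the 20 week pool, and Hspa1b and Slc30a8 higher.

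The DNA directly before the start of these genes is shown because several of them moved together. Of the 10 genes named for the largest rise, 7 had a window of 250 bases before the start in the RefSeq promoter table (build GRCm38.p6). On either strand these windows were searched for the core of the interferon-stimulated response element (GAAA, any 2 bases, GAAA), which factors of the interferon pathway bind, and for a form of the NF-kB site (GGG, any 2 bases, TTTCC). The first was found before Cxcl10 and Rsad2, and the second before Il6, Cxcl1 and Casp4. The stretches run 5′ to 3′ on the gene's strand from 20 bases before the first match to the base before the start, with the matches in capitals: Il6 at chr5:30013050-30013113 (+), Cxcl1 at chr5:90891136-90891244 (+), Cxcl10 at chr5:92348890-92349122 (-), Rsad2 at chr12:26456453-26456592 (-) and Casp4 at chr9:5308736-5308848 (+).
Il6: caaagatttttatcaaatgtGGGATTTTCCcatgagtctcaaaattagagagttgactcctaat
Cxcl1: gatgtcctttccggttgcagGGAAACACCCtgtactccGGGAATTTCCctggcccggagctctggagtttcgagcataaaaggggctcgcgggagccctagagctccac
Cxcl10: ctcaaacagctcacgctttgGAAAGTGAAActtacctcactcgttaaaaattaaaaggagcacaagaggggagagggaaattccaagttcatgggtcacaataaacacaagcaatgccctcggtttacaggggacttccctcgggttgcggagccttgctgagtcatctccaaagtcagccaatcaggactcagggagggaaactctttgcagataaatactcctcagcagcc
Rsad2: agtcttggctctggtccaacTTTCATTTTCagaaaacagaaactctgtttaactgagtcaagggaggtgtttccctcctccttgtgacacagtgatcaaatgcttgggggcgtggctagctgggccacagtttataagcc
Casp4: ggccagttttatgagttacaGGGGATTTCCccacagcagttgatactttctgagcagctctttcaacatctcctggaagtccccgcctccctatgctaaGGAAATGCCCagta

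Among all 11883 tested genes with a window, 3.26% held the interferon motif and 1.8% the NF-kB form. Among the 254 genes with a window whose ratio rose, 28 (11%) held the interferon motif and 16 (6.3%) the NF-kB form. The interferon motif was present in 8 of 20 windows of the type I interferon list (Rsad2, Ifit1 and Ifit3 among them), in 10 of 20 of the interferon gamma list, and in 1 of 26 of the beta cell list. Among the 10 genes named for the largest fall, 9 had a window and 0 of these held either motif. A match of letters is a description of the sequence and does not show that a factor was bound.

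Genes were then followed by lists that stand for pathways and cell types. Over all genes tested 2.01% rose and 0.404% fell, with a median change of -0.02. The lists with the highest medians were those of chemokines and their receptors, the interferon gamma response and the type I interferon response, and the lowest was that of the beta cell. Without 20 week mice 5 and 6 the acinar (-0.87) and Reg family (-0.58) medians were below that of the beta cell (-0.37). On the slide that held both ages they were -1.81 and -1.31, against -0.31 for the beta cell. The list medians of the pool had a wider range than those of the NOD mice, from -0.90 (chemokines) to 0.77 (heat shock) against -0.36 (cell cycle) to 0.66 (immediate early genes).

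**Figure D4:**
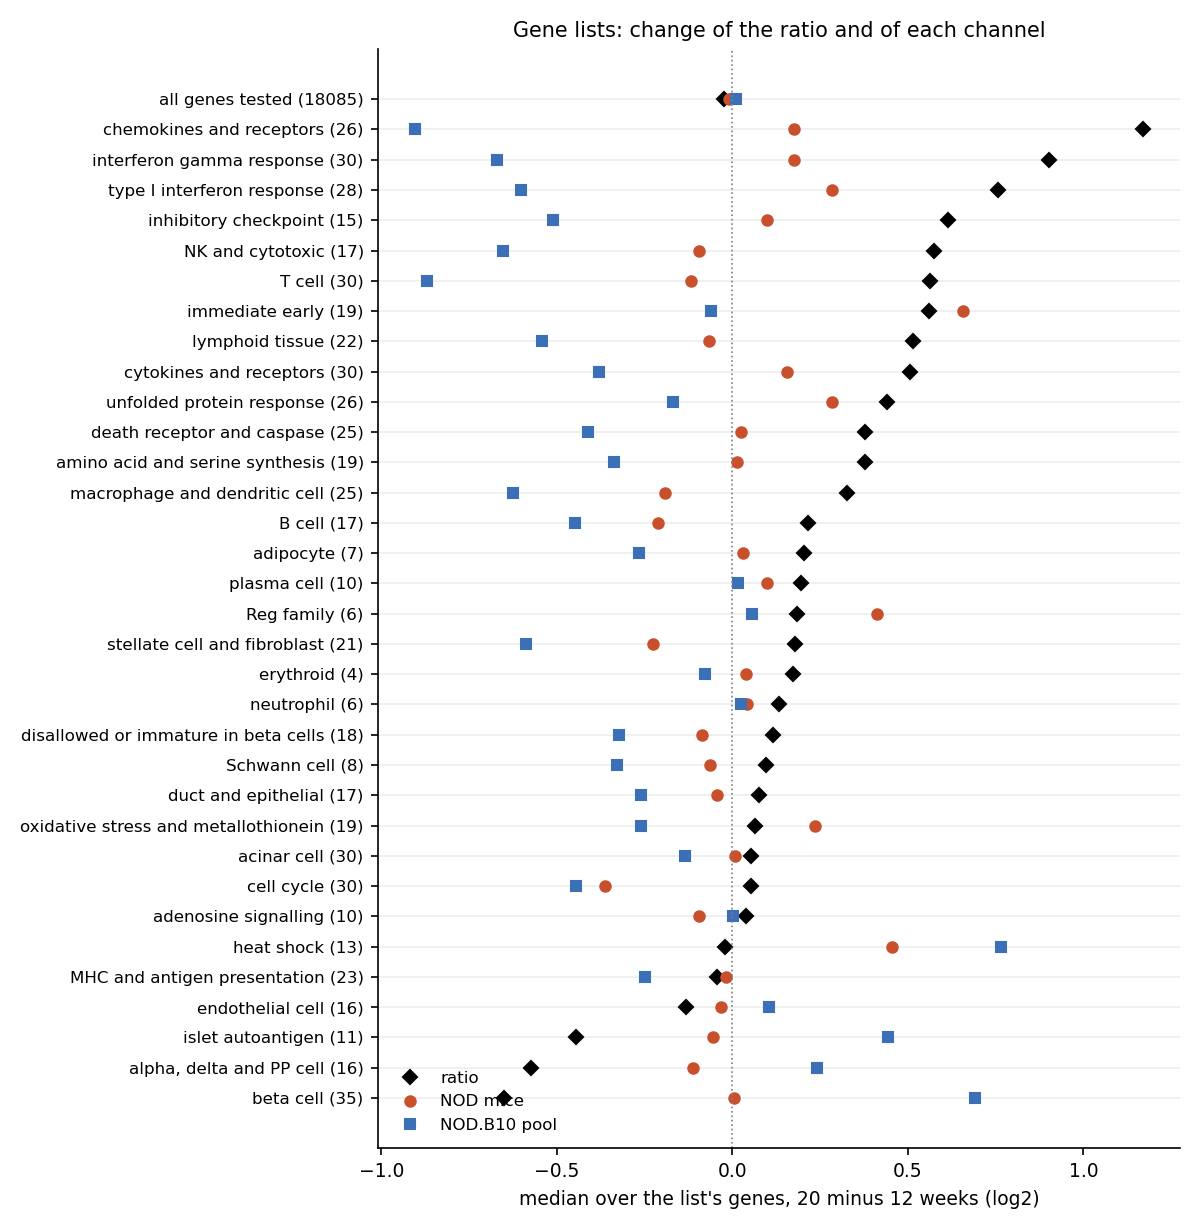
Median change from 12 to 20 weeks (x axis, log2) over the genes of each list, with the number of genes measured in brackets. Diamonds give the ratio, circles the NOD channel and squares the pool channel. The chemokine list is highest at 1.17 and the beta cell list lowest at -0.65; with median centring, relative to all genes, the unfolded protein, immediate early and macrophage medians among others turned below 0.

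Of 26 chemokine and chemokine receptor genes 16 rose and 0 fell, with a median change of 1.17. The NOD channel's median was 0.18 and the pool's -0.90, and in the NOD channel 3 of the 26 were called. The mean ratio of the list ran from -0.33 to 0.39 in the 12 week mice and from 0.82 to 1.96 in the 20 week mice, without overlap. The highest means were those of 20 week mice 1, 2 and 3, from 1.56 to 1.96. Beside Ccl2, Ccl7, Cxcl10 and Cxcl1, the macrophage chemokine Ccl8, already 2.53 ± 0.66 (SD) at 12 weeks, rose to 3.80 ± 0.67, and Cxcl9, an interferon gamma-induced ligand of Cxcr3, rose from 2.54 ± 0.41 to 3.72 ± 0.56. The call of Cxcl9 was lost without 12 week mouse 2, 3 or 6 or 20 week mouse 1 or 6, at changes between 1.06 and 1.38. Ccl19, which brings T cells and dendritic cells together in lymphoid tissue, was as high at 12 weeks (3.73 to 4.51, median 3.84) as at 20 weeks (3.26 to 4.60, median 3.82), and its change of -0.08 ± 0.70 was not called. Within the slide that held both ages the list's median was 1.54. Relative to all genes it was 1.11 under median centring and 2.07 in the authors' deposited table.

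Of 30 interferon gamma response genes 12 rose and 0 fell (median 0.90; NOD channel 0.17, pool -0.67). Icam1, an adhesion molecule for leukocytes, rose by 1.92 ± 0.41 (from -1.29 ± 0.39, SD, to 0.62 ± 0.44), with another probe at 1.25. The guanylate-binding protein Gbp3 rose by 1.44 ± 0.51 and the immunity-related GTPase Irgm1 by 1.41 ± 0.46, with ages that overlapped. Ifng itself was high at both ages (1.85 to 3.38 at 12 weeks and 1.37 to 4.31 at 20 weeks), with a change of 0.42 ± 0.40 that was not called. The call of Gbp3 was lost without 12 week mouse 1, 2, 3 or 6 or 20 week mouse 1, 2, 3 or 4 (changes of 1.29 to 1.68 over single mice left out), and that of Irgm1 without 12 week mouse 3 or 6 or 20 week mouse 1, 2 or 3 (1.20 to 1.60).

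All 28 genes of the type I interferon list had a change above 0, of which 8 rose (median 0.76; NOD channel 0.28, pool -0.60). The members with the largest changes were Rsad2 (2.59), the antiviral GTPase Mx2 (2.32 ± 0.80), the receptor transporter Rtp4 (2.23 ± 0.63) and the antiviral protein Ifit3 (2.15 ± 0.78). Ifit1 ran from -2.17 to -0.95 at 12 weeks (median -1.50) and from -1.18 to 2.69 at 20 weeks (median -0.45), a change of 1.83 ± 0.59 (adjusted p = 0.0255). The 20 week mice were split in this list: its mean ratio was 1.65 and 1.91 in mice 2 and 3, 0.90 in mouse 1 and between -0.05 and 0.09 in mice 4, 5 and 6, against -0.64 to 0.52 at 12 weeks. Mouse 2 shared a slide with mouse 1, and mouse 3 with mice 4, 5 and 6. Mice 2 and 3 also had the most probes well above background in the NOD channel at 20 weeks. Their shares were 64.6% and 60%, against 42.3% to 52.1% in the other 20 week mice. The part of brightness in this split was not tested. No gene of this list was called in the NOD channel by limma (1 had an unadjusted p under 0.05), where mice 2 and 3 were again the highest (list means of 9.88 and 10.09 on the log2 intensity scale, against 8.21 to 9.09 in the other 20 week mice). Without mice 5 and 6, 16 of the 28 were called. On the slide that held both ages the median was 1.42, and that of the interferon gamma list 1.54, and no gene of either list was called there over its 4 arrays. Single mice left out ended calls: for Ifit1 12 week mouse 3 or 20 week mouse 2 or 3 (1.36 to 2.13), for Mx2 12 week mouse 1, 3, 5 or 6 or 20 week mouse 1, 2 or 3 (1.86 to 2.60), and for Ifit3 those and 12 week mouse 2 (1.75 to 2.49).

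Of 30 T cell genes 6 rose and 0 fell, and 29 had a change above 0 (median 0.56). In the NOD mice the median was -0.12 and in the pool -0.87, and the pool's change was the larger for all 30. The pool had between 12 and 17 of the 30 genes above background at 12 weeks and 23 or 24 at 20 weeks, and the NOD mice between 26 and 30 at both ages. The mean ratio of the list was above 0 in every mouse, 0.77 to 1.53 at 12 weeks and 1.05 to 2.19 at 20 weeks, and the ages overlapped. On the slide that held both ages the list's median was 0.95. Icos, a costimulator of activated and follicular helper T cells, ran from 0.74 to 2.54 (median 1.66) and then from 3.18 to 4.54 (median 4.02), a change of 2.18 ± 0.34 (adjusted p = 0.000124), with 0.58 in the NOD channel (not called) and -1.60 in the pool, and another probe read 1.31. Pdcd1, which encodes the inhibitory receptor PD-1, rose by 1.73 ± 0.28 (from a median of 0.54 to 2.21), the cytokine receptor gene Il7r by 1.43 ± 0.37 and Tnfrsf18, which encodes the receptor GITR, by 1.14 ± 0.29. The receptor chain Cd3d (0.78 ± 0.49) and the coreceptors Cd8a (0.62 ± 0.25) and Cd4 (0.09 ± 0.06) were not called. The unnormalized 12 week pool signal ran from 1.48 to 17.4 for Cd8a and from 5.53 to 11.8 for Cd4, where the median gene had 37.3. The changes of these coreceptors thus rest on dim pool signal. So do those of some called genes, whose median 12 week pool signal was also under 37.3. It was 17.7 for Il7r and 30.3 for Pdcd1, and in the lists below 22.8 for Tbx21, 8.57 for Cst7 and 20.6 for Cd86. For Cxcr5, Clec4e and Il1rn it was 35.2, 21.5 and 28.3. Foxp3, the regulatory T cell factor, was not well above background in the pool on any array of these ages.

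Of 17 NK cell and cytotoxic genes 2 rose, all 17 changes were above 0, and the median was 0.57 (NOD channel -0.10, pool -0.65). Tbx21, the master factor of type 1 helper T cells, rose by 1.22 ± 0.21 (from a median of 1.13 to 2.48). The other, Cst7, was not well above background in the 12 week pool. Granzyme B (Gzmb, 0.57 ± 0.19) did not reach 2-fold, and it and perforin (Prf1) were not well above background in the 12 week pool. Of 15 inhibitory checkpoint genes 3 rose (median 0.61), Pdcd1, the costimulatory ligand gene Cd86 (1.35 ± 0.32) and Cd274, which encodes the ligand PD-L1. Cd274 ran from -0.05 to 0.61 at 12 weeks (median 0.28) and from 0.75 to 2.08 at 20 weeks (median 1.61), a change of 1.26 ± 0.32 (adjusted p = 0.00586).

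Of 22 genes of lymphoid tissue organisation 6 rose, 0 fell and 16 did not pass (median 0.51; NOD channel -0.07, pool -0.54). Vcam1, an adhesion molecule for lymphocytes, rose by 1.92 ± 0.40, from 0.49 to 1.53 (median 1.10) to between 2.04 and 4.07 (median 2.97), with another probe at 1.06. Cxcl13, the B cell follicle chemokine, rose by 1.83 ± 0.48 and its receptor gene Cxcr5 by 1.76 ± 0.29. For Cxcl13, 20 week mouse 5 was at 0.01, within the 12 week range (-0.62 to 0.76), and the other 20 week mice were from 1.11 to 3.28; without mouse 5 the change was 2.21. Glycam1, a ligand for lymphocyte homing on high endothelial venules, was not called (1.48 ± 0.72). Its 20 week values were 0.36 in mouse 5 and 2.89 to 3.97 in the others, and without mouse 5 its change was 2.01 and passed the test.

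B cells and antigen presentation had no gene called in the ratio by limma. None of 17 B cell genes (median 0.21), 10 plasma cell genes (0.19) or 23 MHC and antigen presentation genes (-0.04) passed, and 5, 4 and 5 of them had an unadjusted p under 0.05, which 37.9% of all genes tested had. Less that of all genes, the B cell median was -0.02 in the authors' deposited table, which held 12 of the 17. Under median centring it was 0.63 for B cells and -0.55 for MHC, with 3 and 16 genes called lower. Without 20 week mice 5 and 6, 2 B cell, 1 plasma cell and 3 MHC genes rose. The B cell and MHC medians were then 0.44 and 0.25. On the slide that held both ages they were 0.58 and 0.64, with 2 and 0 genes called higher. The class II gene H2-Ab1, which differs between the strains, was high at both ages (2.62 to 3.17 at 12 weeks and 2.23 to 3.32 at 20 weeks) with a change of -0.24 ± 0.43. B2m, the light chain of MHC class I (0.82 ± 0.32), Ighm, the heavy chain of IgM (-0.26 ± 0.75) and Jchain (-0.09 ± 0.48) were not called either. Calls used the brightest probe of each gene. Other probes read 1.30 and 0.20 for B2m, -0.21, 0.52 and 0.02 for H2-Ab1 and 0.28 for Jchain. Of 30 cell cycle genes 0 were called in the ratio (median 0.05, 7 with an unadjusted p under 0.05), while 3 were called lower in the NOD channel. The NOD channel had 17 of the 30 lower at an unadjusted p under 0.05 (11.1% of all genes were), and its list median was -0.36 beside -0.45 in the pool.

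Macrophage and cytokine genes rose in part. Of 25 macrophage and dendritic cell genes 4 rose (median 0.33; less that of all genes, -0.09 under median centring). Clec4e, which encodes the lectin Mincle of activated macrophages, went from the pool's level (-0.39 to 0.46, median -0.13) to 1.12 to 2.53 (median 1.96), a change of 1.95 ± 0.22 (adjusted p = 5.17e-06). It was among the few called in the NOD channel (1.53). Cd14, the endotoxin coreceptor, rose by 2.05 ± 0.39 (from a median of -1.88 to 0.11), Clec7a, the beta-glucan receptor, by 1.87 ± 0.27, and Ccr7, the homing receptor of mature dendritic cells, by 1.24 ± 0.31. Lyz2, a broad myeloid gene, changed by 1.56 ± 0.71 and was not called, though its ages did not overlap (-0.42 to 1.19 and 1.42 to 2.73). Of 30 cytokines and cytokine receptors 8 rose (median 0.51), with Il6, Il1b, the alarmin Il33 (2.38 ± 0.40, pool change -2.03) and Il1rn, the natural antagonist of the interleukin 1 receptor (1.66 ± 0.37). None of 6 neutrophil genes was called (1 had an unadjusted p under 0.05), and S100a8 was not well above background in the pool on any array.

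A few stress-response genes that stood below the pool at 12 weeks rose. Of 26 unfolded protein response genes 4 rose and 0 fell; the list's median was 0.44 (NOD channel 0.28, pool -0.17) but, less that of all genes, -0.44 under median centring. On the slide that held both ages the median was 0.26, with 0 genes called higher and 1 lower. Ddit3, which encodes the proapoptotic factor CHOP, ran from -3.12 to -1.81 at 12 weeks (median -2.65) and from -1.15 to -0.16 at 20 weeks (median -0.80). Its change was 1.89 ± 0.43 (adjusted p = 0.00248), most of it in the NOD channel (1.58, called) and little in the pool (-0.31). The pseudokinase Trib3, a CHOP target, rose by 1.65 ± 0.51 (from -2.19 ± 0.22, SD, to -0.55 ± 0.49), Herpud1, of the degradation machinery of the endoplasmic reticulum, by 1.60 ± 0.28 (NOD channel 1.03, called), and the glutathione-degrading enzyme Chac1 by 2.24 ± 0.70. Another probe of Trib3 read 0.51. Chac1 stood at 2.20 and 1.59 in 20 week mice 5 and 6 and from -0.45 to 0.26 in the others. At 12 weeks it ran from -2.36 to -1.01. On the slide that held both ages the change of Chac1 was 0.95 and that of Herpud1 0.99. Of 19 amino acid and serine synthesis genes 2 rose, the factor Cebpb (1.81 ± 0.26, NOD channel 1.03, called) and the leucine sensor Sesn2 (1.07 ± 0.27, under 2-fold without 12 week mouse 1 or 20 week mouse 3, lowest 0.97), and the serine enzyme Psat1 was not called (0.56 ± 0.38). Another probe of Cebpb read 0.72, and another of Sesn2, in the opposite direction, -0.35.

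Of 19 immediate early genes, which respond to growth signals and to tissue handling, 5 rose and 0 fell. Their median was 0.56 in the ratio, 0.66 in the NOD channel and -0.06 in the pool, but the ratio's median, less that of all genes, was -0.40 under median centring. In the NOD channel 10 of the 19 were higher at an unadjusted p under 0.05 (10.8% of all genes were) and none was called. Gadd45b, a stress sensor, rose by 1.45 ± 0.22, the factor Myc by 1.41 ± 0.23, Egr2 by 1.32 ± 0.28 and Jund by 1.16 ± 0.19, while Fosb was not called (0.50 ± 0.42). Myc was highest in 20 week mouse 5 (1.44, the others 0.38 to 0.73). Other probes read 1.27 and 0.46 for Myc and 0.94 for Gadd45b.

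Of 25 genes of death receptors and caspases 5 rose and 0 fell (median 0.38). Casp4 was followed by Birc3, an inhibitor of apoptosis induced by NF-kB (1.77 ± 0.37), the death receptor Fas (1.34 ± 0.33, from a median of -0.50 to 0.66) and Bcl2l11, which encodes the proapoptotic protein BIM (1.21 ± 0.34). Other probes read 0.28 for Birc3, 0.18 for Bcl2l11 and 0.98 for Fas. Without 20 week mouse 2 the change of Bcl2l11 was 0.98, under 2-fold.

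Among genes that are kept low in mature beta cells, 4 of 18 rose (median 0.12; less that of all genes, -0.04 under median centring). Slc16a1, the pyruvate and lactate transporter, had a narrow spread: -0.69 to 0.05 at 12 weeks (median -0.15) and 1.25 to 1.79 at 20 weeks (median 1.51), a change of 1.75 ± 0.15 and the smallest adjusted p among the genes named here (1.05e-07). Its NOD channel changed by 0.50 (not called) and its pool by -1.25, and its other probes read 0.05 and 1.39. Lactate dehydrogenase, Ldha, rose by 1.08 ± 0.11 (0.71 to 1.16, then 1.88 to 2.31), hexokinase 2, Hk2, by 1.78 ± 0.30 and the neuronal repressor Rest by 1.07 ± 0.17. Rest was under 2-fold without 20 week mouse 1 (0.99), its other probes read 0.17 and 0.49, and another probe of Ldha read 0.40.

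Of 17 duct and epithelial genes 3 keratins rose, Krt8 (1.82 ± 0.52), Krt18 (1.50 ± 0.41) and Krt19 (1.29 ± 0.39), all from means between -2.12 and -1.40 at 12 weeks. The 3 keratins were highest in 20 week mouse 5 (0.57, 1.23 and 0.41). Without 20 week mice 5 and 6, 1 of the 17 genes was called, and on the slide that held both ages 0 were. Of 19 oxidative stress genes 3 rose, the metallothioneins Mt1 (1.96 ± 0.44) and Mt2 (1.93 ± 0.51) and thioredoxin reductase Txnrd1 (1.02 ± 0.17). Txnrd1 was under 2-fold without 12 week mouse 3 or 5 or 20 week mouse 2 or 3 (lowest 0.92). Of 21 stellate cell and fibroblast genes 2 rose, the protease inhibitor Timp1 (1.90 ± 0.29, NOD channel 0.03, pool -1.87, another probe 0.66) and decorin, Dcn (1.01 ± 0.38, adjusted p = 0.0499). The call of Dcn was lost without 12 week mouse 1, 2, 3, 4 or 6 or 20 week mouse 1, 2, 3 or 4 (0.85 to 1.26), and Col1a1 was not called (0.07 ± 0.38). Of 6 Reg genes, which encode secreted lectins of the pancreas and gut, Reg3g rose by 2.55 ± 0.78 (adjusted p = 0.0191). It stood at 1.84 and 0.28 in 20 week mice 5 and 6 and from -3.41 to -1.47 in the other 4, against -4.33 to -3.28 at 12 weeks. Without both mice its change was 1.35 and was not called. Reg3b was not called (0.55 ± 0.90). In the adipocyte list the complement factor gene Cfd was called, but its NOD signal was well above background in 0 of 6 mice at 12 weeks and 1 of 6 at 20 weeks, so no fold is given. None of the 16 endothelial, 8 Schwann cell, 4 erythroid and 10 adenosine signalling genes was called by limma, and 4, 2, 0 and 5 of them had an unadjusted p under 0.05 (37.9% of all genes).

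The falls began with the heat shock protein 70 genes. Hspa1b (chr17:35094200-35094259, mm9), an inducible chaperone, ran from 0.91 to 1.90 at 12 weeks (median 1.46) and from -1.37 to 0.06 at 20 weeks (median -0.26). The change was -1.88 ± 0.25 (adjusted p = 2.21e-05), a 3.67-fold fall, made of 0.23 in the NOD mice and 2.11 in the pool. The unnormalized pool signal of Hspa1b had a median of 1700 at 12 weeks and 28660 at 20 weeks. Its neighbour Hspa1a, which encodes an almost identical protein and whose probes may share transcripts, fell by 1.72 (SE 0.31). These were the 2 called of 13 heat shock genes, whose median change was -0.02 in the ratio with 0.46 in the NOD channel and 0.77 in the pool.

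Cryba2 (chr1:74937168-74937227, mm9), a crystallin gene active in islet endocrine cells, went from 0.11 to 0.63 (median 0.39) to between -2.46 and -0.46 (median -0.93), a change of -1.52 ± 0.26 (adjusted p = 0.000231). The meiotic cohesin gene Rec8 (-1.45 ± 0.17, adjusted p = 5.54e-06) had the narrowest spread at 20 weeks of the 10 genes named for the largest fall without overlap: -0.16 to 0.26 at 12 weeks (median 0.09) and -1.86 to -0.92 at 20 weeks (median -1.37). The vesicle release gene Baiap3 (-1.32 ± 0.28) and the chromatin reader Zmynd8 (-1.29 ± 0.24) fell without overlap as well. Tmem229b (-1.35 ± 0.32), the tropomodulin Tmod2 (-1.28 ± 0.33), Vwa5b2 (-1.27 ± 0.30) and Abcc8, the sulfonylurea receptor of the beta cell's potassium channel (-1.27 ± 0.34), each fell under 2-fold when 20 week mouse 5 was left out (-0.98, -0.97, -0.97 and -0.94). Their changes on the slide that held both ages were -0.62, -0.72, -0.63 and -0.66. Other probes read -0.29 for Abcc8, -0.30 for Vwa5b2, -0.36 and -1.01 for Tmod2 and -0.61 for Rec8. The NOD channel of these 10 genes changed by between -0.91 and 0.23 and none was called there, though Rec8 (-0.91) had an adjusted p of 0.0104 and missed only the 2-fold minimum, while their pool changes ran from 0.54 to 2.11.

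Few beta cell genes were called: 4 of 35 fell, 0 rose and 31 did not pass, with a median of -0.65. The NOD channel's median was 0.00 and the pool's 0.69. Beside Abcc8 these were Cpe, the carboxypeptidase that trims proinsulin (-1.33 ± 0.39), the zinc transporter and autoantigen Slc30a8 (-1.23 ± 0.32) and the transcription factor gene Nkx6-1 (-1.15 ± 0.42, adjusted p = 0.0443). All 4 calls rested on 20 week mouse 5: without it Cpe was at -0.82, Slc30a8 at -0.95, Abcc8 at -0.94 and Nkx6-1 at -0.73, and 0 of 35 genes were called. Without mice 5 and 6 the list's median was -0.37, and on the slide that held both ages -0.31. The call of Nkx6-1 was lost also without 12 week mouse 1, 2, 3, 5 or 6 or 20 week mouse 1 or 6. Over the whole list, 3 of 35 genes had a change above 0. At an unadjusted p under 0.05 by limma 19 were lower, as were 3953 of all 18085 genes. Less that of all genes, the median was -1.40 under median centring and -0.65 in the authors' deposited table. There 33 and 8 of the 35 were called lower, against 7642 of 18085 and 1211 of 15724 genes tested.

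The main hormone genes did not pass. Ins2 ran from -1.69 to -0.61 at 12 weeks (median -1.33) and from -3.66 to -0.25 at 20 weeks (median -0.75), with a change of -0.00 ± 0.46 that was 0.48 without mouse 5. Ins1 ran from -1.33 to -0.44 (median -1.11) and from -5.11 to -0.68 (median -0.98), with a change of -0.67 ± 0.55 that was 0.01 without mouse 5. Gcg, which encodes glucagon (-0.62 ± 0.39), Sst, somatostatin (-0.61 ± 0.38), and Ppy, pancreatic polypeptide (-1.18 ± 0.62), were not called, nor was the glucose transporter Slc2a2 (-0.47 ± 0.50, and 0.07 without mouse 5). In 20 week mouse 5 they stood at -2.87, -2.55, -3.33 and -4.32. The beta cell factor Mafa differed without overlap (-0.71 to 0.10, then -1.52 to -0.79) by -0.88 ± 0.16, and Pdx1 by -0.65 ± 0.15 (adjusted p = 0.000344 and 0.00237), both short of 2-fold; their NOD channels changed by 0.00 and 0.27. Of 16 genes of alpha, delta and PP cells 2 fell, Irx1 (-1.19 ± 0.25, without overlap) and Peg3 (-1.02 ± 0.27), with a list median of -0.57 that was -0.17 without mouse 5. Another probe of Irx1 read -0.06 and another of Peg3 -0.34, and Peg3 was under 2-fold or lost without 12 week mouse 2, 3 or 6 or 20 week mouse 5 (-0.79) or 6. Of 11 autoantigens, Slc30a8 alone was called, and the list's median of -0.45 was -0.08 without mouse 5.

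The ratios of acinar genes had a wide range. None of 30 acinar genes was called or had an unadjusted p under 0.05 by limma, with a median change of 0.05 (under median centring, less that of all genes, -1.07). Without 20 week mouse 5 the median was -0.40, and without mice 5 and 6 it was -0.87 with 5 genes called lower. The mean ratio of the list ran from -1.29 to 0.75 at 12 weeks and from -2.45 to 2.08 at 20 weeks. The 2 highest were 20 week mice 5 and 6 (2.08 and 1.47), the mice with the lowest means of the beta cell list (-2.28 and -1.24, against -0.89 to -0.60 in the other 20 week mice and -0.81 to 0.01 at 12 weeks). In the NOD channel the acinar list's mean ran from 13.94 to 16.87 on the log2 intensity scale at 20 weeks. In the pool, read as 1 sample on 6 arrays, it also ran from 14.79 to 16.39, lowest where the NOD mouse was highest. Both levels came from values normalized over both channels, and how much of the range lay between mice was not tested. The pool's mean of the beta cell list stayed between 11.37 and 11.48 on these arrays. The part of acinar RNA in the falls of beta cell genes was not tested. Cpa1, a carboxypeptidase (0.36 ± 0.55), and the amylase Amy2a5 (-0.41 ± 0.56) were not called. On the slide that held both ages, which did not hold 20 week mice 5 and 6, the acinar median was -1.81.

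**Figure D5:**
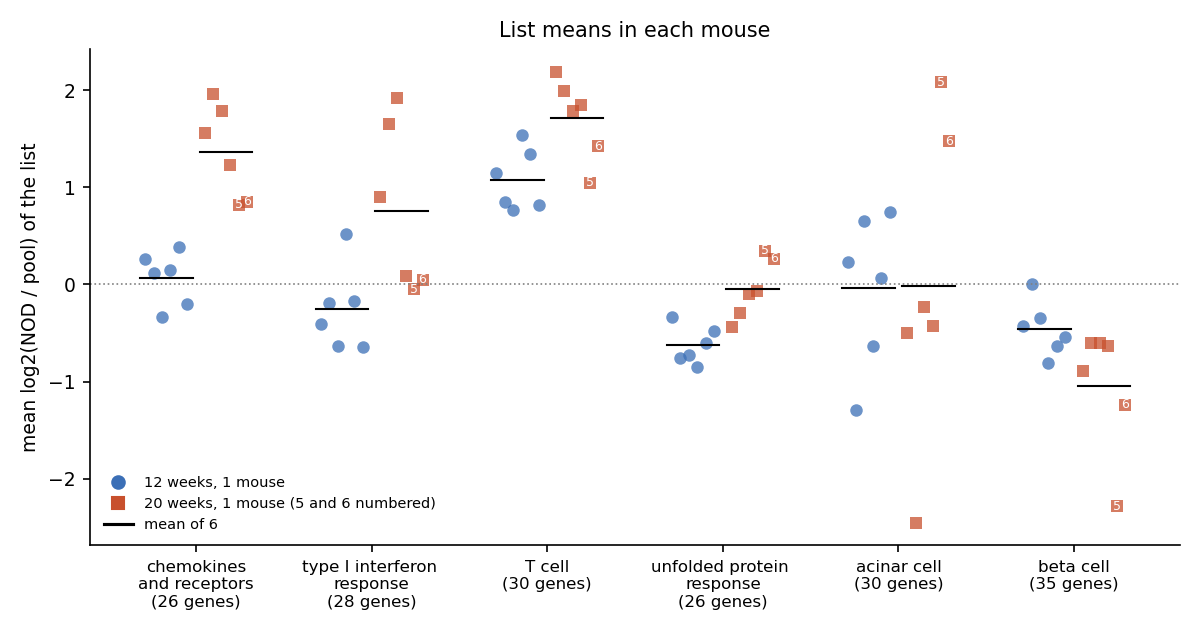
Mean log2 ratio (y axis) over the genes of 6 lists in each mouse; circles are 12 week mice, squares 20 week mice, and bars the mean of 6. The 20 week mice 5 and 6 are numbered: they are highest in the acinar list (2.08 and 1.47) and lowest in the beta cell list (-2.28 and -1.24). The rise of the unfolded protein list relative to all genes turned to a fall under median centring.

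In the NOD channel, the genes that rose most were Il6 (3.10 ± 0.61), Cxcl1 (2.11 ± 0.45), the small GTPase gene Rnd1 (1.96 ± 0.37) and Ccl7 (1.84 ± 0.50). Next came Il1b (1.71 ± 0.35), Ddit3 (1.58 ± 0.43) and Clec4e (1.53 ± 0.25). These levels came from values normalized over both channels, so they are not free of the pool's signal. The protease Adamts4 (1.43 ± 0.22), the hyaluronan synthase Has1 (1.36 ± 0.36), the AP-1 gene Fosl2 (1.28 ± 0.28), Cebpd, a factor of the acute phase response (1.26 ± 0.26), the chemokine Ccl11 (1.15 ± 0.21) and Srf (1.02 ± 0.29) also rose. Rnd1, Adamts4, Has1, Fosl2, Cebpd, Ccl11 and Srf were named for their NOD values after these were seen. The 2 ages did not overlap in the NOD level of these 13 genes, and over both directions they did not overlap for 32 of the 60 called (53.3%, against 3.33% of all genes). Srf was not called in the ratio (0.76), the other 12 were. Among the genes lower in the NOD channel were the cell cycle genes Ccnb2 (-1.04 ± 0.21), Cdc20 (-1.26 ± 0.26) and Tk1 (-1.01 ± 0.23), the class II transactivator Ciita (-1.08 ± 0.31), osteopontin, Spp1 (-1.14 ± 0.30), and the neurotrophin receptor Ngfr (-1.27 ± 0.26), again named after their values were seen. In the pool they changed the same way, by -0.86, -0.86, -0.79, -1.04, -1.39 and -0.88, and none was called in the ratio.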

How the data were processed

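Spot intensity was measured per channel on Agilent whole mouse genome two-colour arrays and deposited by the authors as scanner files of Feature Extraction 10.7.3.1, per the file headers, with probe positions on mm9. Each array was hybridised with labelled RNA made from 300 ng of islet RNA, per the labels' protocols. Per the file headers, the files also hold flags for background and outliers and the software's own log10 ratio after lowess dye normalization. The authors' deposited value table holds log2 ratios, uncentred, with NOD over pool as direction. On each array between 99.1% and 99.8% of them were within 0.0001 of the scanner's log10 ratio multiplied to log2. The rule by which the probes of the deposited table were chosen is not given in the sources used here.

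From the intensities, R 4.3.3 and limma 3.58.1 (with statmod 1.5.0) were used for normexp background correction (offset 50) and within-array loess, with control and outlier spots given no weight. Outlier spots were set to missing (14 ratios among the genes and 12 arrays). Of 41174 probes, 25931 were kept because 6 or more arrays had them well above background in either channel, and the brightest probe stood for each of 18085 genes. Names came from a gene table on GRCm38.p6 by accession (13971 genes), symbol (896) or older symbol (146), and otherwise from the files (3072).

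All 24 arrays entered a single limma fit with 1 mean for each age, and genes were called at a Benjamini-Hochberg adjusted p under 0.05 and a 2-fold change. Channel levels came from the same values after Aquantile scaling, which acts on the mean of both channels, so a NOD level is not free of the pool's signal. The number of arrays limits the precision. The steps were tested on simulated data. Named genes were the 10 highest and 10 lowest called genes without overlap, up to 4 called members per list of 33 lists, and 50 further genes; 2 others are not reported here. The members and lists were chosen with earlier results of these data known. Alternatives were another background correction, scaling, probe filter, probe summary, weights, slide, replicate number and mice left out.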

Additional observations from a re-analysis of the deposited data

Results flagged for a closer look

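In the groups of 6 mice of an age, 1 mouse stood apart from the others in 15 of 216 groups tested (108 named genes at 2 ages), by a gap to its nearest neighbour above Dixon's critical share of the group's range. Chance alone flags about 1 in 20 such groups. Of the 15, 9 were 20 week mouse 5, which had the dimmest NOD sample, the highest acinar list mean ratio (2.08) and the lowest beta cell list mean (-2.28). Its log2 ratios were far below the next mouse for endocrine genes: Ins1 at -5.11 (nearest -1.88), Slc2a2 at -4.32 (-1.95), Cpe at -3.47 (-1.16), Ppy at -3.33 (-0.60) and Sst at -2.55 (-0.52). Tmem229b, at -2.93 (-1.36), and Tmod2, at -2.62 (-1.29), were low in the same mouse. It was also low for Glycam1, at 0.361 (2.89), and high for Myc, at 1.44 (0.73). The part of acinar RNA and of signal strength in these values was not tested.

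The other mice stood apart in few genes. In 20 week mouse 4 the adipocyte genes Cfd, at 3.48 (nearest -0.08), and Adipoq, at 0.787 (-0.01), were high together. The neutrophil gene S100a8 was at 1.27 in 20 week mouse 2 (0.09), a gene well above background in the NOD channel of 1 of the 6 mice of that age. Trib3 was at 0.378 in 20 week mouse 3 (-0.56), Cebpb at -0.0968 in 20 week mouse 6 (0.27), and Il7r at 1.64 in 12 week mouse 4 (0.69).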

How the results depend on the processing

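The number of genes called in the ratio was 436. It was 7665 with median centring in place of loess, 2577 with the scanner software's log ratio, 1990 in the authors' deposited table, 661 with a normexp offset of 16 and 4842 without the 2-fold minimum; leaving out 1 mouse gave 365 to 483. The other alternatives for this count stayed within 1.5 times of it. The 60 genes called in the NOD channel became 110 with the offset of 16, 112 with array quality weights and 102 with the slide as a random block. The count was 5 within the slide that held both ages, 304 without 20 week mice 5 and 6, and 25 to 101 without 1 mouse. It was 91 with the Cy5 values scaled on their own after the same loess step. With the replicate block, 424 and 51 genes were called; the numbers do not pair the mice, since same-numbered mice deviated together with r between -0.23 and 0.631.

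Under median centring, where the median change of all genes was -0.775, 24 of the 108 named genes changed sign with a call under either setting, 10 more changed sign without one, and 33 kept their sign but lost their call, Cxcl10, Il1b, Icos, Casp4 and Ddit3 among them (1.43, 0.79, 0.73, 0.79 and 0.24). The 24 were Tnfrsf18 (-0.32), Sesn2 (-0.65), Fas (-0.16), Bcl2l11 (-0.17), Ldha (-0.66), Rest (-0.0685), Krt8 (-0.0269), Krt18 (-0.35), Krt19 (-0.21), Gadd45b (-0.29), Myc (-0.24), Egr2 (-0.26), Jund (-0.73), Cd274 (-0.0707), Gbp3 (-0.21), Irgm1 (-0.23), Ccr7 (-0.20), Txnrd1 (-0.72), Dcn (-0.70), Herpud1 (-0.22), Cxcl9 (-0.42), Ccl8 (-0.20), Cpa1 (-1.55) and Col1a1 (-1.52). No called gene of the 108 changed sign under the other alternatives run. Within the slide that held both ages, 4 arrays in all, 45 of the 108 lost their call. Other causes of these moves were not tested. Precision is limited by 6 mice per age, by the single pool of each age and by the dim 12 week pool.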
